A study of Mus musculus with 4 samples.

Results

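The transcripts of H2-Aa, H2-Ab1, H2-Eb1 and Cd74 were followed through single-cell RNA sequencing of unconventional αβ T cells (UTCαβ) sorted from mouse sarcomas. H2-Aa and H2-Ab1 encode the α and β chains of the class II molecule I-A, H2-Eb1 encodes the β chain of I-E, and Cd74 encodes the invariant chain. These 4 genes of the 27998 in the matrices were chosen by name and not by a cut-off on their values, though earlier results of these data were known. The tumours had been induced with 3-methylcholanthrene in 2 Csf3r+/+ and 2 Csf3r-/- C57BL/6J mice, whose knockout lacks the receptor for the neutrophil growth factor G-CSF, and each library came from 1 mouse. The cells had been sorted as CD45+, CD11b-, TCRβ+, TCRγδ-, CD4- and CD8-, so B cells, macrophages and most dendritic cells were outside the gate. The libraries are numbered by their barcode suffix, which the labels do not tie to a named animal.

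MHC class II molecules present peptides from endocytosed proteins to CD4 T cells. The α and β chains assemble in the endoplasmic reticulum with the invariant chain, which blocks the groove and directs the complex to endosomes; cathepsins such as Ctss then trim it, and H2-DM exchanges the remaining fragment for a peptide. Dendritic cells, macrophages and B cells transcribe these genes together under the coactivator Ciita, whereas mouse T cells are known to carry little class II mRNA. C57BL/6 mice have no functional I-E α chain, so H2-Eb1 mRNA in these animals does not lead to I-E at the surface.

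In the GENCODE vM21 annotation of GRCm38, the 3 class II genes are protein-coding neighbours on chromosome 17. H2-Ab1 (ENSMUSG00000073421) lies at 34257689 to 34269419 on the plus strand, H2-Aa (ENSMUSG00000036594) at 34282744 to 34287823 on the minus strand and H2-Eb1 (ENSMUSG00000060586) at 34305867 to 34316674 on the plus strand. Their promoters are shown because the 3 genes were found in the same barcodes and because class II promoters share the X and Y boxes, bound by the RFX complex and NF-Y. RefSeq's windows (GRCm38.p6) held H2-Aa and H2-Eb1. The 150 bases before each start, 5′ to 3′ on the gene's strand, are chr17:34287824-34287973 for H2-Aa and chr17:34305717-34305866 for H2-Eb1.
H2-Aa: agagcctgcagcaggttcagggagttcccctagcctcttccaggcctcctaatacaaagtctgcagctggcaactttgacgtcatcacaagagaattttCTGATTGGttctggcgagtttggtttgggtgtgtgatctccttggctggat
H2-Eb1: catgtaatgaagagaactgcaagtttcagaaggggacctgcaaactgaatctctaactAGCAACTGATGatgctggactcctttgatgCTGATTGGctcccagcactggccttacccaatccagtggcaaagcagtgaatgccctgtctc
Capitals mark CTGATTGG, which holds the reversed CCAAT core of the Y box, and AGNNACNNATG, an X-box-like pattern. The motifs were chosen after these windows had been read, were searched on both strands and do not overlap here. CTGATTGG starts 51 bases before the start of H2-Aa and 62 before that of H2-Eb1, and 4.1% of all 32851 promoter windows hold it. AGNNACNNATG starts 92 bases before the start of H2-Eb1, was not found in the H2-Aa window and is in 3.09% of all windows. Both patterns were in 0.113% of the windows.

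Barcodes entered with 200 or more genes, no more than 20000 UMIs and a mitochondrial share of 10% or less, which kept 32392 of 32525. T cell barcodes had at least 1 UMI of Cd3e, a chain of the T cell receptor complex, and 0 of C1qa, C1qb and Lyz2. They numbered 2780 and 6119 in Csf3r+/+ libraries 1 and 2 and 4968 and 5655 in Csf3r-/- libraries 1 and 2. Their medians were 3048, 2994, 2221 and 1958 UMIs per barcode, so the Csf3r-/- libraries were shallower. The other 12870 barcodes are called the remaining barcodes; most had no Cd3e UMI but carried other T cell genes, whose summed level was 4184 to 5399 CPM (UMIs scaled to the same total in every library) against 4514 to 6133 CPM in the T cell barcodes. Macrophage genes moved with a library: of the barcodes with Cd3e, 2.22%, 5.25%, 4.74% and 17.2% also had a C1qa, C1qb or Lyz2 UMI, with Csf3r-/- library 2 the highest. Csf3r itself had 0, 0, 1 and 0 UMIs in the T cell barcodes and 1, 12, 1 and 7 in the remaining ones, too few to check the genotype labels. The libraries shared 486 of 32037 barcode sequences; without them, Cd74 stood at 44.0, 67.7, 193 and 88.6 CPM in the T cell barcodes.

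In the T cell barcodes the 4 members were scarce. CPM is not scaled by transcript length, as each captured 3′ end gives 1 UMI. H2-Aa was at 18.0 and 35.6 CPM in Csf3r+/+ libraries 1 and 2 and at 54.1 and 23.6 CPM in Csf3r-/- libraries 1 and 2. H2-Ab1 was at 27.4, 32.9, 62.8 and 33.9 CPM in the same order, and H2-Eb1 at 12.6, 24.6, 38.5 and 18.6 CPM. The class II genes were highest in Csf3r-/- library 1 and lowest in Csf3r+/+ library 1. Cd74 was at 43.1, 69.5, 191 and 88.3 CPM. The invariant chain transcript was thus the most abundant of the 4 in each library, and for Cd74 and H2-Ab1 both Csf3r-/- values lay above both Csf3r+/+ values. Over the 4 libraries the mean levels were 97.9 ± 64.7 (SD, n = 4) CPM for Cd74, 39.2 ± 15.9 CPM for H2-Ab1, 32.8 CPM (range 18.0 to 54.1) for H2-Aa and 23.6 ± 11.1 CPM for H2-Eb1. The spreads of neighbours in this order overlapped between libraries. Within each library Cd74 was above H2-Ab1 and H2-Aa above H2-Eb1, while H2-Ab1 was above H2-Aa except in Csf3r+/+ library 2.

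The levels, summed over barcodes, were far higher outside the T cell barcodes. The share of barcodes with a Cd74 UMI differed much less where neither Cd3e nor a macrophage UMI was present. After each barcode was thinned to 1500 UMIs, the mean share there was 4.91% in Csf3r+/+ and 10.8% in Csf3r-/-. In the T cell barcodes it was 3.32% and 8.62%. Among barcodes with neither Cd3e nor a macrophage UMI, Cd74 was at 721, 319, 1706 and 615 CPM. Among barcodes without Cd3e but with 5 or more UMIs of C1qa, C1qb and Lyz2, of which there were 6, 42, 12 and 87, it was at 12096, 16701, 25697 and 20796 CPM. In the same barcodes H2-Aa was at 7348, 11397, 10747 and 7922 CPM and H2-Ab1 at 7221, 11918, 12425 and 8806 CPM. H2-Eb1 was at 4820, 8494, 8961 and 6680 CPM there. The 6 such barcodes of Csf3r+/+ library 1 had no UMI of C1qc, Csf1r, Cd14 or Mrc1 and 18306 CPM of the dendritic cell list. Cst3, which is on that list, was at 4296 to 17765 CPM over libraries in barcodes with 5 or more macrophage UMIs and no Cd3e. Aif1, Cd68, Ms4a7 and Adgre1, also macrophage genes, were found there in every library, at no less than 361, 72.2, 54.2 and 18.1 CPM. The T cell level was 0.340 ± 0.113% (SD, n = 4) of the level in these barcodes for H2-Aa, 0.386 ± 0.0937% for H2-Ab1, 0.315 ± 0.0769% for H2-Eb1 and 0.485 ± 0.175% for Cd74. For the macrophage genes Apoe and C1qc, which the choice of barcodes did not use directly, the share was lower in 3 libraries, at 0.0650% to 0.241% and 0.0444% to 0.238%. The T cell barcodes had 0 UMIs of the macrophage genes C1qa, C1qb and Lyz2, and the others 5 or more. The rule thus takes part in this difference between the members and other macrophage genes. In Csf3r+/+ library 1, Apoe had 14 UMIs in the 6 barcodes, a share of 2.65%, and C1qc had none. The order depended on the barcodes kept: with barcodes of 5 or more class II UMIs left out, Csf3r+/+ library 2 had shares of 0.0860%, 0.0922% and 0.0945% for H2-Aa, H2-Ab1 and H2-Eb1, below 0.101% for Apoe and 0.138% for C1qc. Against barcodes with 1 or more macrophage UMIs, H2-Aa (0.686%) and H2-Eb1 (0.657%) in Csf3r-/- library 2 were below C1qc (0.705%) and Apoe (0.713%).

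**Figure D1:**
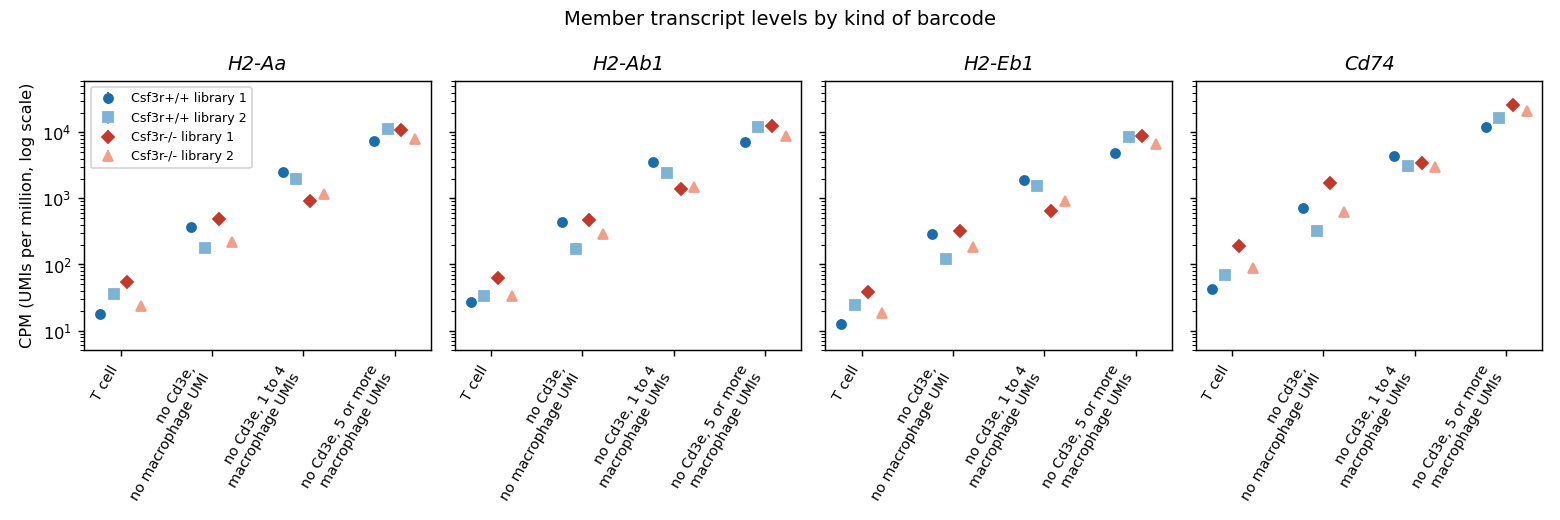
Levels of the 4 members (y axis, CPM on a log scale) in 4 kinds of barcode (x axis), with 1 point per library and exact 95% Poisson intervals that are mostly smaller than the points. Each member is lowest in the T cell barcodes and highest in the barcodes with 5 or more macrophage UMIs; Cd74 runs from 43.1 to 191 CPM in the former and from 12096 to 25697 CPM in the latter.

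The remaining barcodes were compared with the T cell barcodes of the same library, to place the members among all genes. H2-Aa was at 643, 549, 682 and 943 CPM in the remaining barcodes, H2-Ab1 at 778, 580, 743 and 1105 CPM and H2-Eb1 at 478, 405, 497 and 791 CPM. Cd74 was at 1170, 872, 2114 and 2471 CPM. None of these values overlapped with the T cell barcodes. A UMI of any member was found in 12.9% to 30.8% of the remaining and in 8.63% to 26.6% of the T cell barcodes over libraries. By edgeR's quasi-likelihood test with the library as a block, 4 of 4 members were higher (log2 difference 4.44, SE 0.43 for H2-Aa; 4.36, SE 0.35 for H2-Ab1; 4.50, SE 0.43 for H2-Eb1; 4.15, SE 0.38 for Cd74). The edgeR p-values adjusted over all 11732 genes were 0.0385, 0.0235, 0.0361 and 0.0341, and 3.44% of the genes tested were called higher. The call needed all 4 libraries: with any 1 left out, 0 of 4 members passed, at log2 differences of 3.92 to 4.83 and edgeR adjusted p from 0.0605 to 0.188. The rule for T cell barcodes removes macrophages by 3 genes, so it takes part in this difference.

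Genes that act with class II covered a wide range of differences between the same barcodes. Of 24 listed genes of class II presentation, 23 were tested, 6 were higher in the remaining barcodes, 0 were lower and 17 did not pass by edgeR; the median log2 difference of the list was 0.74, against -0.01 over all genes. H2-DMb1, a chain of the peptide exchanger, was higher by a log2 difference of 4.26 (SE 0.10, edgeR adjusted p 4.42e-14), and March1, the ligase that removes class II from the surface, by 3.99 (SE 0.35, edgeR adjusted p 5.72e-07). H2-Ob, a chain of the H2-DM inhibitor, the lysosomal reductase Ifi30, Cd83 and Ciita were higher by 1.74, 0.78, 0.35 and 0.75. Of 10 genes of class I presentation, 0 were called in either direction by edgeR and by DESeq2, with a median of -0.00. The marker lists moved with the members: 10 of 10 macrophage, 6 of 10 dendritic cell and 2 of 6 tested B cell genes were higher in the remaining barcodes. Their part in the members' difference was not tested.

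Within the T cell barcodes, Ctss and Cd83 had higher mean levels than Cd74 among the class II pathway genes, and the others had lower ones. Ctss, the cathepsin that trims the invariant chain, had a mean of 235 CPM (188 to 277 over libraries), Cd83 102 CPM (14.5 to 233), Ifi30 54.3 CPM and the NF-Y subunit Nfyb 53.7 CPM. Creb1 and Nfyc, which also bind class II promoters, had 43.9 and 34.1 CPM, and H2-DMa and H2-Oa had 31.0 and 23.9 CPM. Ciita was at 3.84 CPM (1.67 to 6.31) and the H2-DM β chain genes H2-DMb1 and H2-DMb2 at 2.93 and 2.79 CPM. The DM α chain gene was thus more abundant than either β chain gene. Class I was abundant: B2m had a mean of 8911 CPM, H2-D1 4257 CPM and H2-K1 2981 CPM.

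Most class II and Cd74 UMIs of the T cell barcodes came from few barcodes in 3 of 4 libraries. The barcodes with 5 or more UMIs of the 4 members numbered 4, 46, 62 and 25, which is 0.144%, 0.752%, 1.25% and 0.442% of the T cell barcodes. They held 66.4%, 69.0%, 80.4% and 11.4% of all member UMIs. In Csf3r+/+ library 1 a single barcode with 622 of 967 member UMIs made up 64.3% on its own. Csf3r-/- library 2 stood apart in the other direction: barcodes with exactly 1 member UMI held 54.5% of its member UMIs, against 18.5%, 19.5% and 12.6% in the other libraries. In the remaining barcodes, those with 5 or more made up 3.43% to 7.32% of the barcodes over libraries and held 97.1% to 98.7%. The levels of the remaining barcodes thus also describe a small subset. The levels in the T cell barcodes of the first 3 libraries therefore describe a small subset more than a typical T cell barcode.

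**Figure D2:**
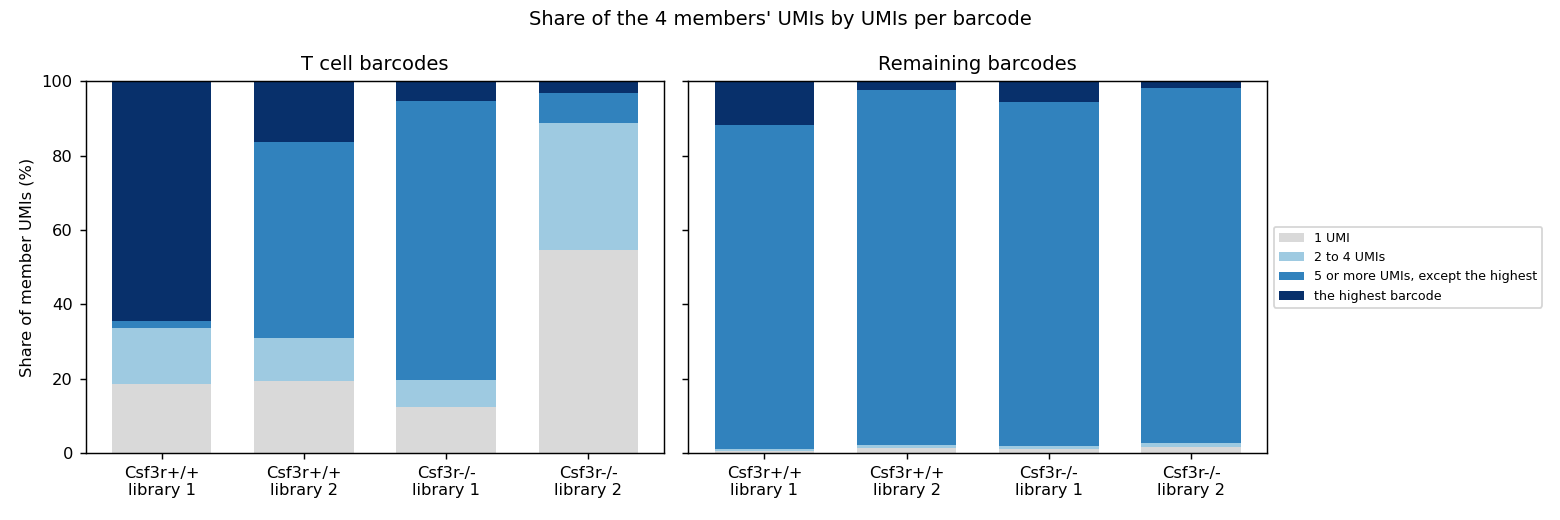
Share of the 4 members' UMIs (y axis, %) held by barcodes with 1, 2 to 4, or 5 or more member UMIs, with the highest barcode shown apart, per library (x axis). In the T cell barcodes, 1 barcode holds 64.3% in Csf3r+/+ library 1, and barcodes with a single UMI hold 54.5% in Csf3r-/- library 2.

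The 137 T cell barcodes with 5 or more member UMIs were set beside the 16087 with 0, as a description, since the members chose them. Of them 2, 32, 44 and 5 had all 3 class II genes, and 2, 2, 7 and 6 had none. The genes with the highest median log2 ratio over the 4 libraries were H2-DMb2 (4.71), Ly6d (3.91), Ebf1 (3.73), Napsa (3.61), Ctsh (3.57), H2-Ob (3.53), Cd79a (3.47), Cd24a (3.35), Cd81 (3.16) and Irf8 (2.95). Ebf1 is a B cell transcription factor and Cd79a a chain of the B cell receptor. Several did not lead in every library. In Csf3r+/+ library 1 the ratio was 0.00 for Cd79a, 0.00 for Ly6d and -0.34 for Ebf1, and in Csf3r-/- library 2 it was -0.03 for H2-DMb2, -0.23 for H2-Ob and -0.23 for Cd24a. Napsa, Ctsh, Cd81 and Irf8 were positive in all 4. Cd3e, which the rule required in both sets, was lower (median log2 ratio -0.32, -0.48 to -0.14 over libraries). Cd3d was lower as well (-0.53, -0.90 to -0.29).

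Marker lists in the same barcodes differed between libraries. The summed level of 6 measured B cell genes was 54.0, 806, 2276 and 152 CPM, against 16.2, 6.58, 39.3 and 19.4 CPM in the barcodes with 0 member UMIs. The dendritic cell list stood at 30359 CPM in the 4 barcodes of Csf3r+/+ library 1 and at 870, 412 and 531 CPM in the others. Cst3 alone gave 29386 CPM of the first value. In barcodes with 0 member UMIs, Cst3 alone was at 160 to 407 CPM over libraries. The macrophage list was at 918, 129, 194 and 369 CPM. Aif1 alone gave the first value, and Apoe ran from 0 to 260 CPM and C1qc from 0 to 32.5 CPM over libraries. Csf1r, Cd14 and Mrc1 were at 0 in all 4 libraries. The part of these lists in the members' level was not tested directly. Leaving out any barcode with a B cell marker UMI kept 2635, 5950, 4465 and 5405 T cell barcodes. It also removed 2.08% to 9.06% of the barcodes with 0 member UMIs over libraries. Cd79b had the highest mean of the B cell list in the T cell barcodes, 20.6 CPM. In the barcodes kept, H2-Aa stood at 18.9, 23.4, 9.58 and 23.0 CPM and Cd74 at 43.5, 43.0, 48.4 and 86.3 CPM. The library with the highest class II level, Csf3r-/- library 1, then had the lowest. That order still included the Csf3r+/+ library 1 barcode with 622 member UMIs, as 547 of that library's 555 class II UMIs stayed in. With barcodes of 5 or more class II UMIs left out instead, that library held 135 class II UMIs. No doublet caller was run, and 2 cells under 1 barcode cannot be told from 1 cell with both sets of transcripts.

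The genotypes, the contrast the libraries were made for, were then compared. In the T cell barcodes the mean Cd74 level was 140 ± 72.6 (SD, n = 2) CPM in Csf3r-/- and 56.3 ± 18.7 CPM in Csf3r+/+. By edgeR the log2 difference was 1.17 (SE 0.46, adjusted p 0.350). For H2-Aa it was 0.39 (SE 0.54, edgeR adjusted p 0.801), for H2-Ab1 0.56 (SE 0.34, edgeR adjusted p 0.525) and for H2-Eb1 0.46 (SE 0.51, edgeR adjusted p 0.742). No member passed, in a comparison in which edgeR called 0 of 11239 genes (0%) and 1665 had an unadjusted p under 0.05; DESeq2 called 640 genes, none of them a member. The sign for class II changed with the barcodes kept. Without those that had a B cell marker UMI, the edgeR log2 differences were -0.47, -0.13 and -0.24 for H2-Aa, H2-Ab1 and H2-Eb1 and 0.55 for Cd74, none called. The Csf3r+/+ library 1 barcode with 622 member UMIs stayed in that fit, and no fit left out both kinds of barcode. With barcodes of 5 or more class II UMIs left out instead, the log2 ratios of the mean CPM were 1.27, 1.26 and 1.35 for the class II genes, given as a description because the members chose those barcodes. The summed B cell list was 79.6 CPM in Csf3r-/- library 1 and 16.02 to 21.3 CPM in the others.

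Shares of barcodes with a UMI gave a reading that few rich barcodes cannot dominate. After each T cell barcode was thinned to 1500 UMIs, which left out 1570 of 19522 as too shallow (63, 137, 526 and 844), Cd74 was found in 2.98%, 3.66%, 6.44% and 10.8% (unthinned 5.22%, 7.21%, 9.16% and 14.8%). The exact 95% Clopper-Pearson intervals were 2.37% to 3.69%, 3.20% to 4.17%, 5.73% to 7.20% and 9.94% to 11.7%. Any class II gene was found in 2.25%, 4.56%, 5.45% and 9.98% (unthinned 4.28%, 9.64%, 8.62% and 14.6%). The Csf3r-/- libraries exceeded both Csf3r+/+ libraries for Cd74 and for class II at equal depth. The differences of the means were 5.30 and 4.31 percentage points; the exact two-sided permutation p was 0.333 for each, the smallest that 2 against 2 libraries allow. Without barcodes with a B cell marker UMI the thinned class II share was 2.29%, 4.18%, 4.49% and 9.90%. On this measure the Csf3r-/- libraries stayed above the others, but Csf3r-/- library 1 (4.49%) was close to Csf3r+/+ library 2 (4.18%). For H2-Aa alone the libraries of the genotypes overlapped in that set, at means of 0.999 ± 0.753% (SD, n = 2) in Csf3r+/+ and 2.19 ± 1.46% in Csf3r-/-. Its exact two-sided permutation p was 0.667, against 0.333 for H2-Ab1 and for H2-Eb1.

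Macrophage genes that T cells should lack were read for comparison. The T cell barcodes had already been chosen with 0 UMIs of C1qa, C1qb and Lyz2, so these shares do not measure the level of free RNA. They also do not cover RNA from B cells or dendritic cells. At the same depth C1qc was found in 0.221%, 0.368%, 0.405% and 1.46% and Apoe in 1.10%, 3.49%, 1.31% and 13.7% of the T cell barcodes. Apoe was therefore highest in the library in which Cd74 was highest, while Csf3r-/- library 1 had less Apoe than Csf3r+/+ library 2 and more Cd74. In Csf3r+/+ library 2 and Csf3r-/- library 2 the Cd74 share was close to or below the Apoe share. The part of free RNA in the difference between genotypes was not tested.

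**Figure D3:**
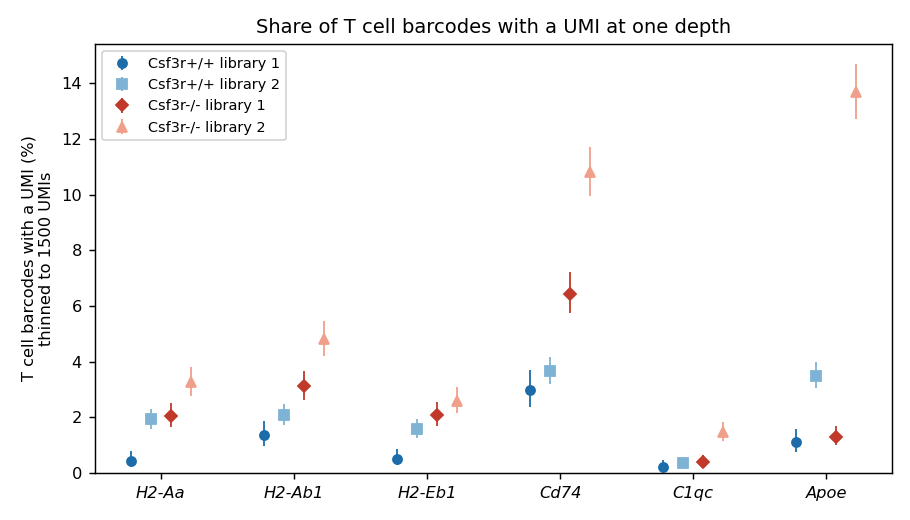
Share of T cell barcodes with at least 1 UMI (y axis, %) after thinning to 1500 UMIs, for the 4 members and for the macrophage genes C1qc and Apoe (x axis), 1 point per library with exact 95% Clopper-Pearson intervals. Cd74 is at 2.98% and 3.66% in Csf3r+/+ and at 6.44% and 10.8% in Csf3r-/-, and Apoe reaches 13.7% in Csf3r-/- library 2.

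In the remaining barcodes as a whole, the members had positive differences between genotypes, as in the T cell barcodes. Mean Cd74 was 2293 ± 253 (SD, n = 2) CPM in Csf3r-/- and 1021 ± 211 CPM in Csf3r+/+, without overlap. The log2 difference was 1.07 (SE 0.24, edgeR adjusted p 0.142), and the class II genes were at 0.35 to 0.45 (edgeR adjusted p 0.610 to 0.684). edgeR called 0 of 10824 genes (0%), with 1439 at an unadjusted p under 0.05. DESeq2 called 438 genes, Cd74 among them (adjusted p 0.0138), so this call depended on the tool. The macrophage list was at 92.1 and 887 CPM in the Csf3r+/+ and at 644 and 4435 CPM in the Csf3r-/- remaining barcodes, and all 10 of its genes had a positive difference, none called by edgeR. Their part in the Cd74 difference was not tested. Within the barcodes with 5 or more macrophage UMIs and no Cd3e, Cd74 was at 14398 ± 3256 (SD, n = 2) CPM in Csf3r+/+ and 23246 ± 3465 CPM in Csf3r-/-. Within those with 1 to 4 macrophage UMIs and no Cd3e the direction was not the same: Cd74 was at 3750 ± 959 CPM in Csf3r+/+ and 3184 ± 290.0 CPM in Csf3r-/-, with overlap. H2-Aa was there at 2247 ± 349 CPM in Csf3r+/+ and 1047 ± 191 CPM in Csf3r-/-, and all 3 class II genes were lower in both Csf3r-/- libraries, with log2 ratios of -1.10, -1.06 and -1.13.

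Foxp3, the transcription factor of regulatory T cells, split the T cell barcodes unevenly for Cd74 and for class II. Barcodes with a Foxp3 UMI numbered 7, 120, 22 and 82. Cd74 was at 190, 233, 45.2 and 358 CPM in them and at 42.4, 65.6, 192 and 83.0 CPM in the barcodes without Foxp3. In 3 of 4 libraries Cd74 was 3.55 to 4.48 times higher with Foxp3. The highest ratio, in Csf3r+/+ library 1, rested on 8 Cd74 UMIs in 7 barcodes. In Csf3r-/- library 1, where 22 barcodes gave 4 Cd74 UMIs, Cd74 was lower. The sum of the class II genes was at 23.8, 63.2, 33.9 and 76.4 CPM with Foxp3 and at 58.2, 93.8, 156 and 76.1 CPM without. By these sums, class II was thus not higher with Foxp3 beyond counting error in any library. The share of barcodes with any class II gene could not be read for a direction. Thinned to 1500 UMIs, it was 4.74 ± 6.71% (SD, n = 2) in Csf3r+/+ and 10.3 ± 1.12% in Csf3r-/- with Foxp3, and 3.36 ± 1.57% and 7.69 ± 3.20% without. Thinned to 1000 UMIs, it was 2.92% and 1.83% with Foxp3, and 2.53% and 5.75% without. The genes and their sum were thinned in separate random draws. At 1500 UMIs H2-Aa, H2-Ab1 and H2-Eb1 were in 0%, 1.39% and 0.694% of the Csf3r-/- barcodes with Foxp3. The 10.3% for the sum thus depended on its draw. At an equal depth of 1500 UMIs, Cd74 was found in 16.7%, 30.2%, 14.3% and 30.6% of the Foxp3 barcodes and in 2.95%, 3.14%, 6.40% and 10.5% of the others, and Apoe in 0%, 2.59%, 0% and 13.9% of the Foxp3 barcodes. With no more than 7 and 22 Foxp3 barcodes, the shares of Csf3r+/+ library 1 and Csf3r-/- library 1 are coarse. Thinned to 1000 UMIs, Cd74 was at 8.75 ± 12.4% (SD, n = 2) in Csf3r+/+ and 14.5 ± 14.0% in Csf3r-/- with Foxp3, and at 2.46 ± 0.464% and 6.26 ± 1.88% without. The Cd74 UMIs per class II UMI were 8, 3.69, 1.33 and 4.68 with Foxp3 against 0.729, 0.700, 1.23 and 1.09 without, and 0.525 to 0.888 in the barcodes with 5 or more macrophage UMIs and no Cd3e.

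By edgeR with the library as a block, Cd74 was not called in the Foxp3 split (log2 difference 1.18, SE 0.76, adjusted p 0.688), and neither were H2-Aa (-1.26, SE 0.43, edgeR adjusted p 0.0672), H2-Ab1 (-1.14, SE 0.39, edgeR adjusted p 0.0762) or H2-Eb1 (-0.12, SE 0.40, edgeR adjusted p 0.952). Of 10408 genes, 4% were called. The Cd74 result depended on the barcodes and libraries kept. It was called higher with Foxp3 once barcodes with a B cell marker UMI were left out (1.76, SE 0.23, edgeR adjusted p 1.22e-11), once the deepest 5% of barcodes were left out (1.40, SE 0.26, edgeR adjusted p 1.64e-05), and without Csf3r-/- library 1 (1.76, SE 0.24, edgeR adjusted p 1.95e-10). Leaving out barcodes with a B cell marker UMI also took the Foxp3 barcodes of Csf3r-/- library 1 from 22 to 14. A further alternative, chosen after the data were seen, left out barcodes with 5 or more class II UMIs. Cd74 was then at 190, 210, 45.2 and 358 CPM with Foxp3 and at 20.2, 21.0, 44.9 and 78.4 CPM without, and Csf3r-/- library 1 showed no difference (ratio 1.01). The edgeR log2 difference was 2.24 (SE 0.21), given as a description because the members chose those barcodes. In the same set the class II sum was at 23.8, 36.0, 33.9 and 76.4 CPM with Foxp3 and at 14.1, 28.7, 33.2 and 71.5 CPM without. It was thus not lower with Foxp3 there, though the 23.8 CPM is 1 UMI. With all T cell barcodes but without Csf3r+/+ library 1, H2-Aa passed as lower with Foxp3 (edgeR adjusted p 0.0484).

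The other genes of that split place the Foxp3 barcodes. By edgeR, Il2ra, Ikzf2 and Ctla4, markers of regulatory T cells, were higher by log2 differences of 1.51, 1.16 and 3.16, and 4 of 4 NK receptor genes were lower. DESeq2 also called the 3 regulatory T cell markers higher. It called 0 of the 4 NK receptor genes, though none had a positive difference. Of the 20 tested class II pathway genes, 1 was higher and 0 were lower, where 4% of all genes were called. It was Cd80, a costimulatory ligand, higher by 2.93 (SE 0.62, edgeR adjusted p 0.000196). Of 10 class I genes, 1 was higher, the peptide transporter Tap1, by 0.87 (SE 0.18, edgeR adjusted p 0.000172). The median log2 difference was 0.23 for the class II pathway list and -0.15 over all genes. Whether the Foxp3 difference varied with genotype was tested as an interaction: no member passed (edgeR adjusted p of 1 for each; 2 of 10408 genes passed).

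**Figure D4:**
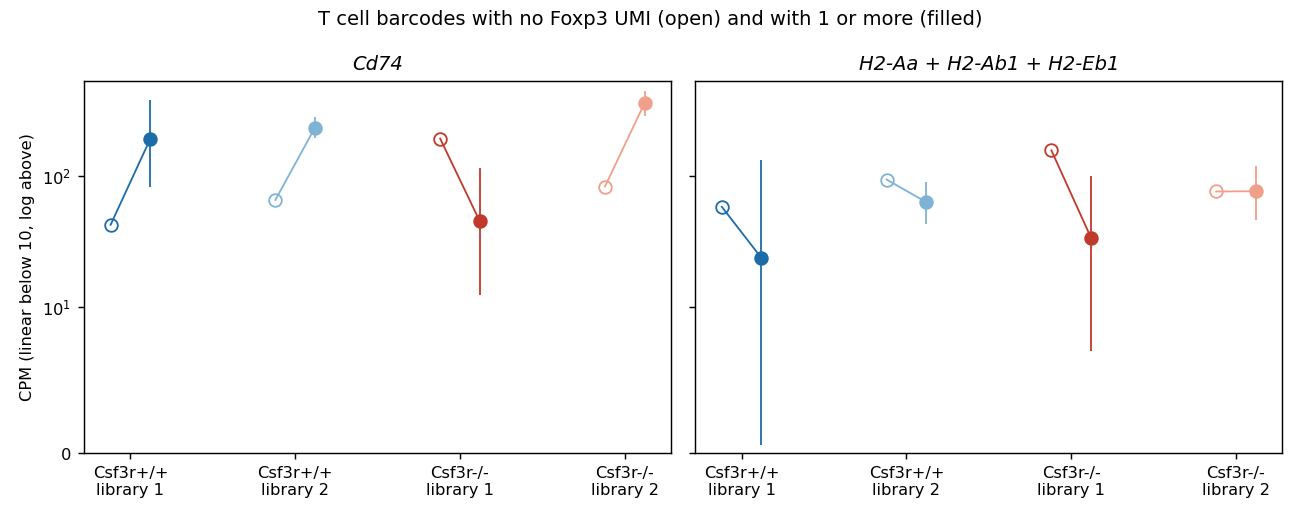
Level (y axis, CPM, linear below 10 and logarithmic above) of Cd74 (left) and of the 3 class II genes summed (right) in T cell barcodes without a Foxp3 UMI (open) and with 1 or more (filled), per library (x axis), with exact 95% Poisson intervals. Cd74 is higher with Foxp3 in 3 libraries, reaching 358 CPM in Csf3r-/- library 2 and resting on 8 UMIs in Csf3r+/+ library 1. The class II sum is not higher beyond counting error.

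T cell barcodes with Cd74 but no class II were looked at as a separate set, defined after the data were seen. There were 27, 62, 62 and 109 barcodes with 2 or more Cd74 UMIs and 0 of the 3 class II genes. Beside barcodes with none of the 4 members, the genes with the highest median log2 ratio were the costimulatory receptors Tnfrsf4 (3.57) and Tnfrsf9 (2.35), Klrg1 (2.56), Foxp3 (2.46), Cd81 (2.22) and Ctla4 (1.88). Sdcbp2, Irf8, Glrx and Slc15a3 followed at 1.21, 1.19, 1.16 and 1.11. Cd81 and Irf8 were also among the leading genes of the barcodes rich in members. Cd79a UMIs were found in 0 of the 260 barcodes, which allows a share with a UMI of up to 1.15% and does not bound the share of cells that express it. Foxp3 UMIs were found in 1 of 27, 20 of 62, 1 of 62 and 15 of 109 barcodes, so mostly in library 2 of each genotype. The median log2 ratio of Apoe was -0.08 (-0.79 to 0.78 over libraries).

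Klrd1, a subunit of the CD94 NK cell receptor, was found in 41.2%, 74.7%, 19.1% and 17.9% of the T cell barcodes. H2-Aa was at 34.3, 36.6, 39.6 and 30.1 CPM with Klrd1 and at 3.004, 30.9, 59.1 and 21.5 CPM without. In Csf3r+/+ library 1 the high value came from the single barcode with 622 member UMIs, which has Klrd1: with class II rich barcodes left out, H2-Aa there was at 2.85 CPM with and 2.40 CPM without. Cd74 was at 55.1, 68.1, 136 and 67.2 CPM with Klrd1 and at 32.0, 75.7, 210 and 95.03 CPM without. No member was called by edgeR (log2 differences 0.67, SE 0.69 for H2-Aa; 0.29, SE 0.49 for H2-Ab1; 0.37, SE 0.56 for H2-Eb1; -0.04, SE 0.28 for Cd74; edgeR adjusted p 0.590 to 0.953), while 20.5% of all 10391 genes were. With class II rich barcodes left out, Cd74 was lower with Klrd1 in all 4 libraries. The levels were 9.42 against 31.5, 22.6 against 37.8, 31.7 against 49.5 and 53.9 against 93.4 CPM. The edgeR log2 difference was then -0.78 (SE 0.16), given as a description because the members chose those barcodes.

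Among 20 tested class II pathway genes, 2 were higher and 4 lower with Klrd1 by edgeR, where 20.5% of all genes were called. The costimulatory ligand Cd86 (1.29, SE 0.24, edgeR adjusted p 0.0121) and H2-DMa (0.48, SE 0.12, edgeR adjusted p 0.0177) were higher. The protease Lgmn (-1.58), Cd80 (-1.75), Ifi30 (-0.44) and Ctss (-0.23) were lower. Of 10 class I genes, 2 were higher, H2-K1 (0.24) and Psmb9 (0.31), a share near that over all genes. By DESeq2, 1 class II pathway gene was higher and 4 were lower, and 1 class I gene was higher. With all T cell barcodes, H2-Ab1 and H2-Eb1 were higher with Klrd1 in both Csf3r+/+ libraries and lower in both Csf3r-/- libraries; the interaction with genotype did not pass (log2 -1.32, SE 0.70, edgeR adjusted p 0.828 and -1.67, SE 0.64, edgeR adjusted p 0.796), and 19 of 10391 genes did. The pattern was not there once class II rich barcodes were left out: H2-Ab1 was at 5.92 CPM with and 11.8 CPM without Klrd1 in Csf3r+/+ library 1, and at 10.985 and 11.008 CPM in library 2. H2-Eb1 was then at 1.31 and 3.61 CPM in Csf3r+/+ library 1 and at 7.97 and 8.26 CPM in library 2.

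**Figure D5:**
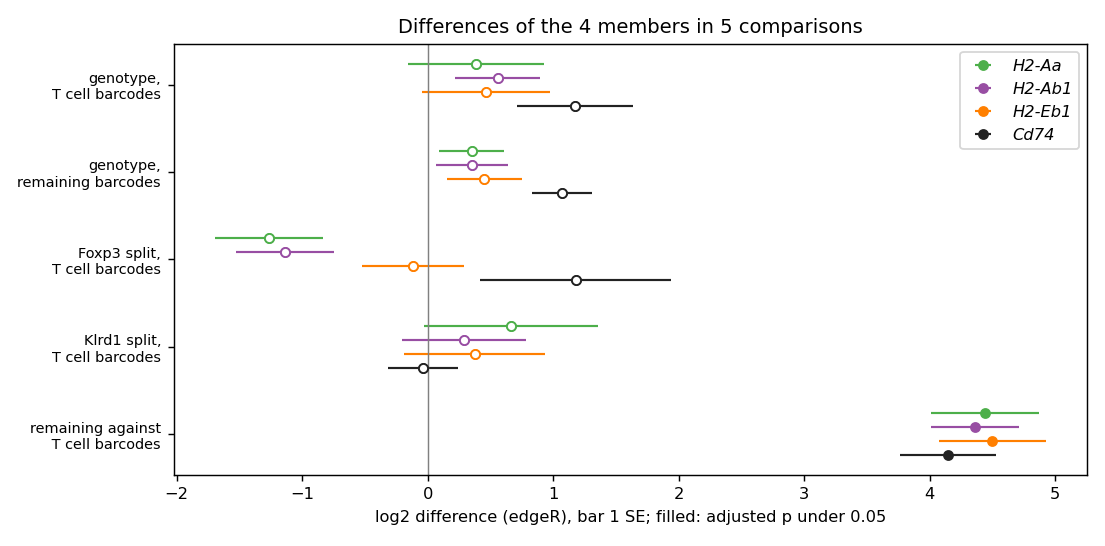
Log2 differences of the 4 members by edgeR (x axis, bars 1 SE) in the 5 comparisons (y axis), filled where the adjusted p was under 0.05. The remaining against the T cell barcodes is filled for all 4 members, at 4.15 to 4.50, and the other comparisons are open.

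Barcodes with both Cd3e and macrophage UMIs, which the rule keeps out of the T cell barcodes, carried more of the members where they had more macrophage UMIs, in 3 of 4 libraries. With 1 to 4 macrophage UMIs (61, 316, 240 and 1125 barcodes) Cd74 was at 40.8, 490, 496 and 498 CPM. With 5 or more (2, 23, 7 and 46 barcodes) it was at 0, 11185, 19609 and 16799 CPM. The barcodes with as many macrophage UMIs and no Cd3e had 12096 to 25697 CPM over libraries, and in each library more than those with Cd3e. The 2 barcodes of Csf3r+/+ library 1 with Cd3e and 5 or more macrophage UMIs had no member UMI. Cd74, at 60803848 to 60812652 on the plus strand of chromosome 18 (GRCm38; ENSMUSG00000024610), is not a neighbour of the class II genes; in the T cell barcodes with a Cd74 UMI, a class II UMI was found in 16.6%, 26.3%, 23.5% and 19.3%, against 3.61%, 8.35%, 7.11% and 13.8% of those without. The gap was smallest in Csf3r-/- library 2, and depth differs between these sets (medians 2094 and 1935 UMIs in that library, 4117 and 2932 in Csf3r+/+ library 2).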

How the data were processed

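The authors processed the reads with bcl2fastq and Cell Ranger against mm10 and deposited 1 aggregated matrix of raw UMI counts per genotype; the tool and build names are those of the submitters' processing notes, and whether aggregation equalised depth is not given in the sources used here. Libraries held 12483656 to 38559291 UMIs. The members and lists were chosen with earlier results of these data known, and the genes most like the members by the median log2 ratio (CPM + 10) in 10% or more of the barcodes.

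UMIs were summed per library and class of barcode. For the shares, each gene and the class II sum were thinned in separate random draws. Python 3.11.15 (numpy 2.4.6, scipy 1.17.1, pandas 2.3.3) gave the levels, exact Poisson and Clopper-Pearson 95% intervals, which cover counting error only, and two-sided exact permutation tests; a floor of 3 counts was used. Differences were fitted over all genes with edgeR 4.0.16 in R 4.3.3 (TMM, filterByExpr, robust quasi-likelihood, Benjamini-Hochberg adjustment, threshold 0.05), with the library as a block within libraries and none between genotypes. Alternatives were DESeq2 1.42.0, other scaling, filters and barcodes, and leaving out each library. With 1 mouse per library, n is 2 per genotype. The genotype and Foxp3 fits were tested on simulated data. No doublets were removed. H2-Ea-ps was not analysed here. Places come from GENCODE vM21 and promoters from RefSeq. Named genes were the 4 members, the 8 most abundant genes of the class II list, genes called from the lists, and the 10 genes most like the members.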

Additional observations from a re-analysis of the deposited data

Results flagged for a closer look

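Barcodes outside the limits on genes, UMIs and mitochondrial share entered no comparison, and all 4 members were higher there in both Csf3r-/- libraries than in either Csf3r+/+ library. There were 41, 7, 10 and 75 such barcodes in Csf3r+/+ libraries 1 and 2 and Csf3r-/- libraries 1 and 2. H2-Aa was at 1279, 0, 5307 and 2477 CPM and H2-Ab1 at 2255, 39.6, 4743 and 3189 CPM. H2-Eb1 was at 1042, 39.6, 5074 and 2323 CPM and Cd74 at 2759, 39.6, 10812 and 6321 CPM. The difference was not tested.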

How the results depend on the processing

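No member was called between genotypes in the T cell barcodes under any alternative run. Over all genes there, the main count of 0 became 640 with DESeq2, 310 with no filter on low counts and 1 to 1402 with 1 library left out, the highest without Csf3r+/+ library 1. In the remaining barcodes 0 became 438 with DESeq2, 538 with no filter, 24 without barcodes with a B cell marker UMI, 18 without the deepest barcodes and 1 to 864 with 1 library left out; 1 member, Cd74, was called with DESeq2, 1 with no filter and 0 to 1 with 1 library left out (edgeR adjusted p 0.0236 without Csf3r+/+ library 1). Library numbers are shared between genotypes, and the correlation of same-numbered deviations was 0.212 in the T cell and 0.216 in the remaining barcodes. With only 2 pairs, whether the numbers pair the samples could not be settled. With the replicate block 385 genes were called in the T cell and 264 in the remaining barcodes, and no member.

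In the Foxp3 split 1 member, Cd74, was called without barcodes with a B cell marker UMI and 1 without the deepest barcodes, and 0 to 1 with 1 library left out; all genes called went from 416 to 133 with DESeq2, 216 without the deepest barcodes, 14 without the library block and 159 to 445 with 1 library left out. In the Klrd1 split 2135 became 0 without the library block and 550 to 2832 with 1 library left out. For the remaining against the T cell barcodes, 4 members became 2 without the deepest barcodes and 0 with any library left out; 491 genes became 1039 with no filter, 324 without the deepest barcodes and 44 without the library block.

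Signs turned for members that were not called. Without B cell marker barcodes the genotype difference in T cell barcodes was -0.47 for H2-Aa, -0.13 for H2-Ab1 and -0.24 for H2-Eb1, and with 1 library left out it was -0.27 to 1.08 for H2-Aa and -0.085 to 1.14 for H2-Eb1; in the remaining barcodes H2-Ab1 ran from -0.031 to 0.64. In the Foxp3 split H2-Eb1 was 0.45 without B cell marker barcodes, 0.32 without the deepest and -0.49 to 0.24 with 1 library left out. In the Klrd1 split, without the deepest barcodes, H2-Ab1 was -0.34 and H2-Eb1 -0.30; with 1 library left out they were -0.16 to 0.56 and -0.061 to 0.78, and Cd74 -0.30 to 0.14, with 0.12 without B cell marker barcodes. Against barcodes with 1 or more macrophage UMIs, the T cell level was 0.900% for H2-Aa, 0.919% for H2-Ab1, 0.826% for H2-Eb1 and 1.22% for Cd74. The causes were not tested, beyond fewer libraries or barcodes in the fit. With 2 mice per genotype and 7 Foxp3 barcodes in Csf3r+/+ library 1, small differences could not be seen.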
